A study of Mus musculus with 24 samples.

Results

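The histone genes described here are the genes of the clustered histone families, taken by their symbols. A gene was a member if its symbol began with Hist1h, Hist2h, Hist3h or Hist4h, which picked 70 of the 55450 genes in the table. They comprise 6 H1, 20 H2A, 19 H2B, 12 H3 and 13 H4 genes. Of these, 3 are pseudogenes (Hist1h2aj, Hist1h2al and Hist3h2bb-ps). By position in the mouse genome (GRCm38/mm10, GENCODE M21), 56 Hist1 genes lie on chromosome 13 (21715763 to 23934851, with the pseudogene Hist1h2al far apart at 51202727 to 51203065), 10 in the Hist2 cluster on chromosome 3 (96219865 to 96270132), 3 in the Hist3 cluster on chromosome 11 (58948920 to 58956830) and 1, Hist4h4, on chromosome 6 (136801553 to 136804415).

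Histones package DNA into nucleosomes. H2A, H2B, H3 and H4 form the core around which the DNA winds, and H1 binds the linker where the DNA enters and leaves. Most genes of the clusters are transcribed during DNA replication, and their mRNAs end in a conserved stem-loop in place of a poly(A) tail. The stem-loop is bound by Slbp, which guides 3′ end cleavage and couples the life of the mRNA to S phase, whereas cells that no longer divide also make polyadenylated transcripts from some of these genes. A few members are testis-type variants made in male germ cells, namely the linker histone Hist1h1t (H1t), Hist1h2aa (TH2A) and Hist1h2ba (TH2B).

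The study compared Thumpd1 knockout (KO) with wild-type (WT) mice, to learn how losing an adapter protein for tRNA acetylation alters gene expression in cerebellum, liver and testes. It held 24 libraries, 4 for each genotype and tissue, with WT numbered 1 to 4 and KO 5 to 8. KO mice carried deletions from CRISPR-Cas9 cuts in exons 1 and 4 of Thumpd1, made in C57BL/6N eggs and kept on the C57/BL6 background, and WT mice were age-matched littermates. Animals were 6 to 12 weeks old and, by the methods of the study, of either sex. Several deletion lines were made, and which of them gave these tissues was not given in the sources used here. No label gives a library's animal, so the p-values measure only the spread between these libraries.

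The libraries were made from total RNA after removal of ribosomal RNA, without selection for poly(A), so that stem-loop mRNAs could be captured. Totals lay between 16353797 and 37889615 counts. Thumpd1 was at 21.8 CPM (counts scaled to the library total) or more in every WT cerebellum library, 9.19 or more in WT liver and 24.3 or more in WT testes, and at most 0.113, 0.106 and 1.14 CPM in the KO libraries of these tissues. Y-linked genes were detected in all 24 libraries, with a summed level of at least 56.7 CPM, so no library came from female tissue alone. The expected tissue markers were present, with all 8 granule cell, all 6 hepatocyte and all 10 elongating spermatid genes of fixed lists tested in cerebellum, liver and testes, respectively. The 6 most abundant noncoding RNAs took 6.07% to 7.41% of cerebellum counts, 17.5% to 31.0% of liver counts and 4.56% to 5.83% of testes counts.

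A stem-loop was found in the annotated transcript of 46 members, 4 of H1, 11 of H2A, 10 of H2B, 9 of H3 and 12 of H4. It is shown for the members that carry the results below, as 26 bases read from GRCm38 on the gene's strand, with the stem-loop in capitals.
Hist1h1t: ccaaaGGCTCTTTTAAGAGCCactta
Hist1h1e: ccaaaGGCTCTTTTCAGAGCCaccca
Hist2h2aa2: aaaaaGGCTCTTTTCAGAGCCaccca
Hist1h2bp: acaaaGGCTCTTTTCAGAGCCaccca
Hist1h3a: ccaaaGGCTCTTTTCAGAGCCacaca
Hist1h3e: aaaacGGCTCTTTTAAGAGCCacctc
Hist1h4h: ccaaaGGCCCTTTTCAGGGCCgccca
Hist1h4i: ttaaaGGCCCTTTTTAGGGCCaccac
Hist2h4: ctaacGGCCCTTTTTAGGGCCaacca
The form in Hist1h1e was the most frequent, with 26 members of H1, H2A, H2B and H3. The form in Hist1h1t and Hist1h3e was present in 6 members. The form in Hist1h4h was present in 7 members and that in Hist1h4i and Hist2h4 in 2, all of them H4 genes. The loop lies within 100 bases of the annotated end in 23 members, as in Hist1h4h with 46 bases behind it, and farther inside in the other 23. Annotation ran on for 185 bases in Hist1h1t, 330 in Hist1h4i, 1153 in Hist1h1e and 1257 in Hist2h4. No loop was found in the annotated transcripts of 21 coding members, among them Hist1h2aa, Hist1h2ba and Hist2h3b, and 11 of these 21 are annotated with coding sequence alone, so that the window does not reach the 3′ end. Members annotated more than 100 bases past the loop gave 59.8% of all member counts in WT cerebellum, 43.7% in WT liver and 37.2% in WT testes.

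RefSeq promoter windows (GRCm38.p6, 250 bases before to 50 after the gene start) were matched for 62 members. Words known from histone promoters were searched on both strands. The word CCAAT (reverse ATTGG) was in 53 of the 62, against 37.4% of all 32851 windows, and in every H1, H2A, H2B and H3 window but only 3 of 12 H4 windows. TATAAA (reverse TTTATA) was in 35, against 13.6% of all windows. The octamer ATTTGCAT (reverse ATGCAAAT), bound by the transcription factor Oct1 (Pou2f1), was in 13, against 1.74%, and these were 7 of 18 H2A and 6 of 16 H2B windows. The H1 box AAACACA (reverse TGTGTTT) was in 5 of 6 H1, 2 H2A and 2 H2B windows, against 7.18% of all. 3 windows are shown because the testes results turn on these genes, with every such word in capitals. Hist1h1t lies at chr13:23695561-23695860 on the plus strand, Hist1h2aa at chr13:23934187-23934486 on the plus strand and Hist1h4i at chr13:22041313-22041612 on the minus strand.
Hist1h1t: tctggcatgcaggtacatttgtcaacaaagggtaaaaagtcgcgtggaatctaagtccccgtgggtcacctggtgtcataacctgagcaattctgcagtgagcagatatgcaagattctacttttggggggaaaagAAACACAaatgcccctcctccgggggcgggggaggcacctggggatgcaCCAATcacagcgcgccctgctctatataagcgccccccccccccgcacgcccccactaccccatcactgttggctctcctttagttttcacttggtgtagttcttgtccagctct
Hist1h2aa: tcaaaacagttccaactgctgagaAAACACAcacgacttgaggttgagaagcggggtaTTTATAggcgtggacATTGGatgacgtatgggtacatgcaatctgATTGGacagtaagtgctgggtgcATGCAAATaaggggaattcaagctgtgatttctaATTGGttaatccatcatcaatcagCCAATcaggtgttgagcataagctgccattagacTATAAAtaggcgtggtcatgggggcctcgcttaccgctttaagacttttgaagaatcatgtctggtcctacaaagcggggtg
Hist1h4i: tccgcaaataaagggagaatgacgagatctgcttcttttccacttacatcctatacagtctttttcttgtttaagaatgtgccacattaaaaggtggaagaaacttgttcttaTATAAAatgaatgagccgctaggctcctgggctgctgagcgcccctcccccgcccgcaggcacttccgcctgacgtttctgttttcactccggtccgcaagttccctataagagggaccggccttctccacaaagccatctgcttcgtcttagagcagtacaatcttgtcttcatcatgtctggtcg
The Hist1h1t window held 1 CCAAT and 1 H1 box and the Hist1h4i window 1 TATAAA word. The Hist1h2aa window held 4 CCAAT, 2 TATAAA, 1 octamer and 1 H1 box on either strand. It covers most of the stretch between Hist1h2aa and Hist1h2ba, which lie head to head with 305 bases between their starts, but not the end next to Hist1h2ba. In all, 15 pairs of members were arranged so, 14 of them an H2A with an H2B gene.

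Some members are near-identical copies, and the division of their reads between copies rests on the counting model. Genes that share at least 80% of the 50-base words of one of them were Hist2h2aa1, Hist2h2aa2, Hist2h3c1 and the predicted gene Gm20634, the set Hist1h2ad, Hist1h2ah, Hist1h2ai, Hist1h2aj and Hist1h2an, and the pairs Hist1h2bq with Hist1h2br, Hist1h4m with Hist1h4n, and Hist1h2ao with Hist1h2ap. Values of these members are uncertain one by one. The same holds for Hist1h3h, Hist1h3i, Hist1h2bn and Hist1h2bl, which share 82.8% to 93.9% of their words with all other genes, and to a lesser degree for Hist2h3b (79.7%) and Hist1h3e (73.4%). On the same strand, Hist1h2be also overlaps Hist1h1e, Hist3h2a overlaps Trim17 and Hist2h2bb overlaps Gm42743. Hist3h2a shares 31.5% of its words with other genes, most of all with Trim17, and Hist2h2bb shares 53.6%. Their values may hold reads of these neighbours.

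Which histone genes each tissue used was compared over the WT libraries. Together the members took 0.0564% to 0.0714% of the counts of a cerebellum library, 0.0602% to 0.0673% of a liver library and 0.161% to 0.215% of a testes library. Their summed level in WT was 587 ± 18.7 CPM in cerebellum, 620 ± 18.7 in liver and 1821 ± 132 in testes (SD, n = 4 each). Class sums are given without a test. H4 led in cerebellum with 45.9% of the member counts, ahead of H2A with 19.5%, H1 with 14.7%, H2B with 11.9% and H3 with 8.08%. H4 also led in liver with 30.8%, followed by H1 with 24.8%, H2A with 17.9%, H2B with 17.2% and H3 with 9.29%. In testes the order was H1 with 28.6%, H2B with 24.6%, H2A with 23.6%, H4 with 17.7% and H3 with 5.52%. The 3 testis-type members alone held 35.8% of the testes member counts.

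The gene that gave most counts of its class changed with the tissue in H1, H2B, H3 and H4. These are shares of counts and are not scaled for gene length. Of the H1 counts, Hist1h1c (H1.2) gave 48.4% in WT liver and 32.5% in cerebellum, Hist1h1e (H1.4) gave 40.2% and 41.2%, and in testes Hist1h1t gave 63.2% and Hist1h1a (H1.1) 24.6%. Of the H2B counts, Hist1h2bc gave 87.0% in liver but 18.2% in cerebellum, where Hist3h2ba gave 29.3%, and Hist1h2ba gave 63.1% in testes. Of the H2A counts, the copies Hist2h2aa1 and Hist2h2aa2, which share reads, together gave the largest share in every tissue, with 44.2% in WT cerebellum, 77.1% in liver and 69.2% in testes. Hist3h2a, which overlaps Trim17 on the same strand, gave 37.8% in cerebellum. Of the H3 counts, Hist2h3b led in cerebellum with 30.4%, Hist1h3e in liver with 30.7% and Hist2h3c2 in testes with 21.4%. Of the H4 counts, Hist1h4h gave 45.4% in liver and 18.4% in testes, Hist2h4 gave 24.5% in cerebellum and 0.9% in testes, and Hist1h4c gave 30.4% in testes.

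**Figure D1:**
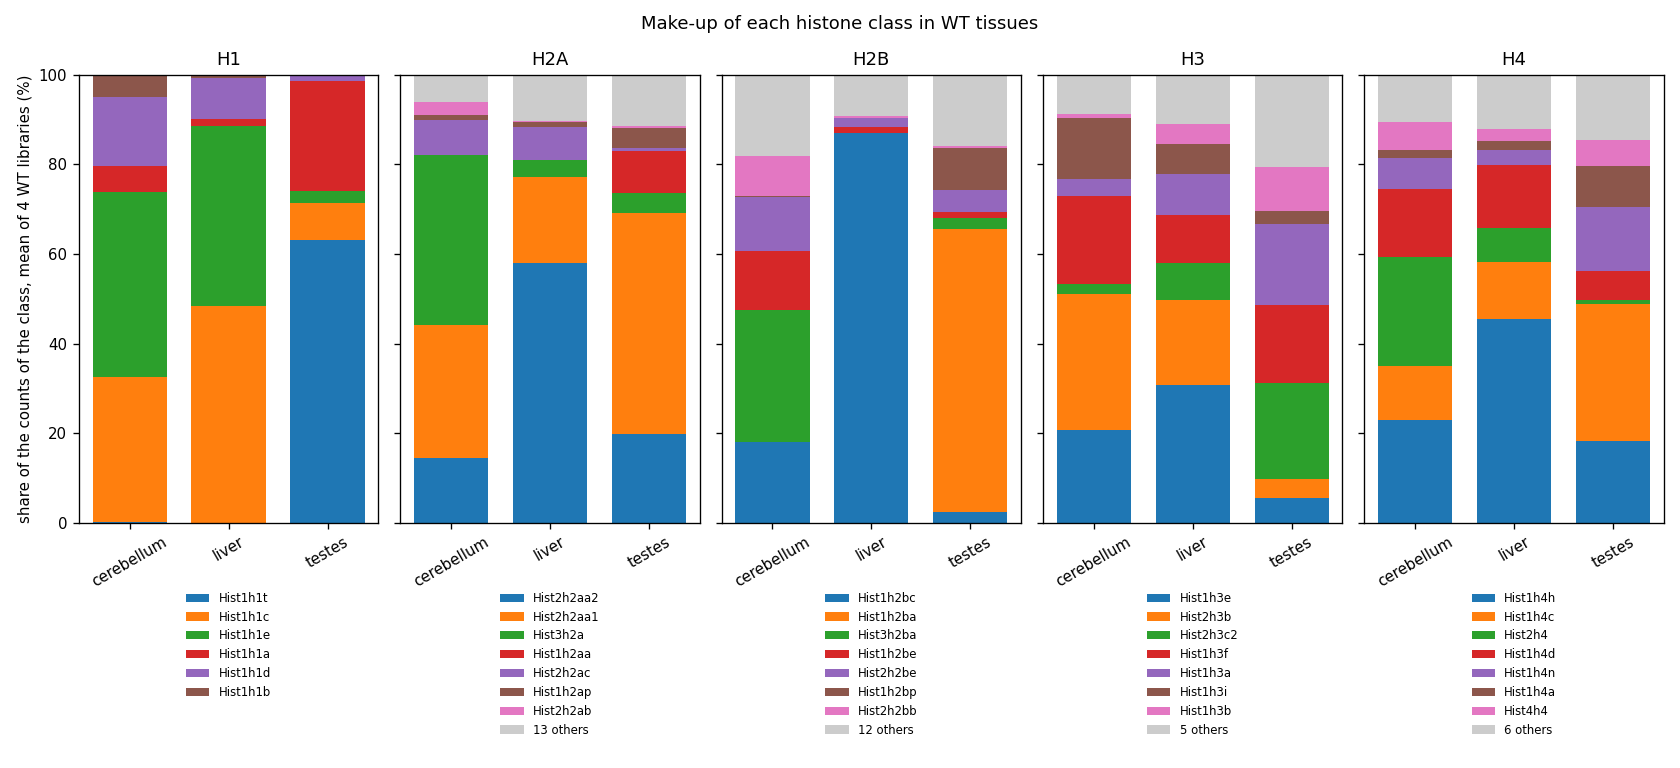
Share of the counts of each histone class held by its genes in WT, in percent, as stacked bars from 0 to 100% for cerebellum, liver and testes (means of 4 libraries, 1 panel per class, smaller genes joined in grey). Hist1h2bc takes 87.0% of H2B in liver, and Hist1h1t and Hist1h2ba take 63.2% of H1 and 63.1% of H2B in testes.

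Levels of different genes were then compared per length, as CPM per kilobase of annotated exon. On this scale Hist1h4h was the highest H4 gene in every tissue, with a WT mean of 132 in cerebellum, a higher one of 185 in liver and one of 126 in testes. The highest H1 genes were Hist1h1e in cerebellum (18.4), Hist1h1c in liver (47.7) and Hist1h1t in testes (360). The highest H2B genes were Hist3h2ba (33.3), Hist1h2bc (80.3) and Hist1h2ba (737), respectively. The highest H2A genes were Hist2h2aa1 in cerebellum and testes (58.2 and 362) and Hist2h2aa2 in liver (122), and the highest H3 genes were Hist2h3b in cerebellum and liver (29.5 and 22.4) and Hist1h3a in testes (33.9). Annotated ends that run far past the loop lower this value for some members, Hist1h1e, Hist1h4c and Hist2h4 among them. Ranks within a class, that of Hist1h4h included, thus depend on the annotation.

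**Figure D2:**
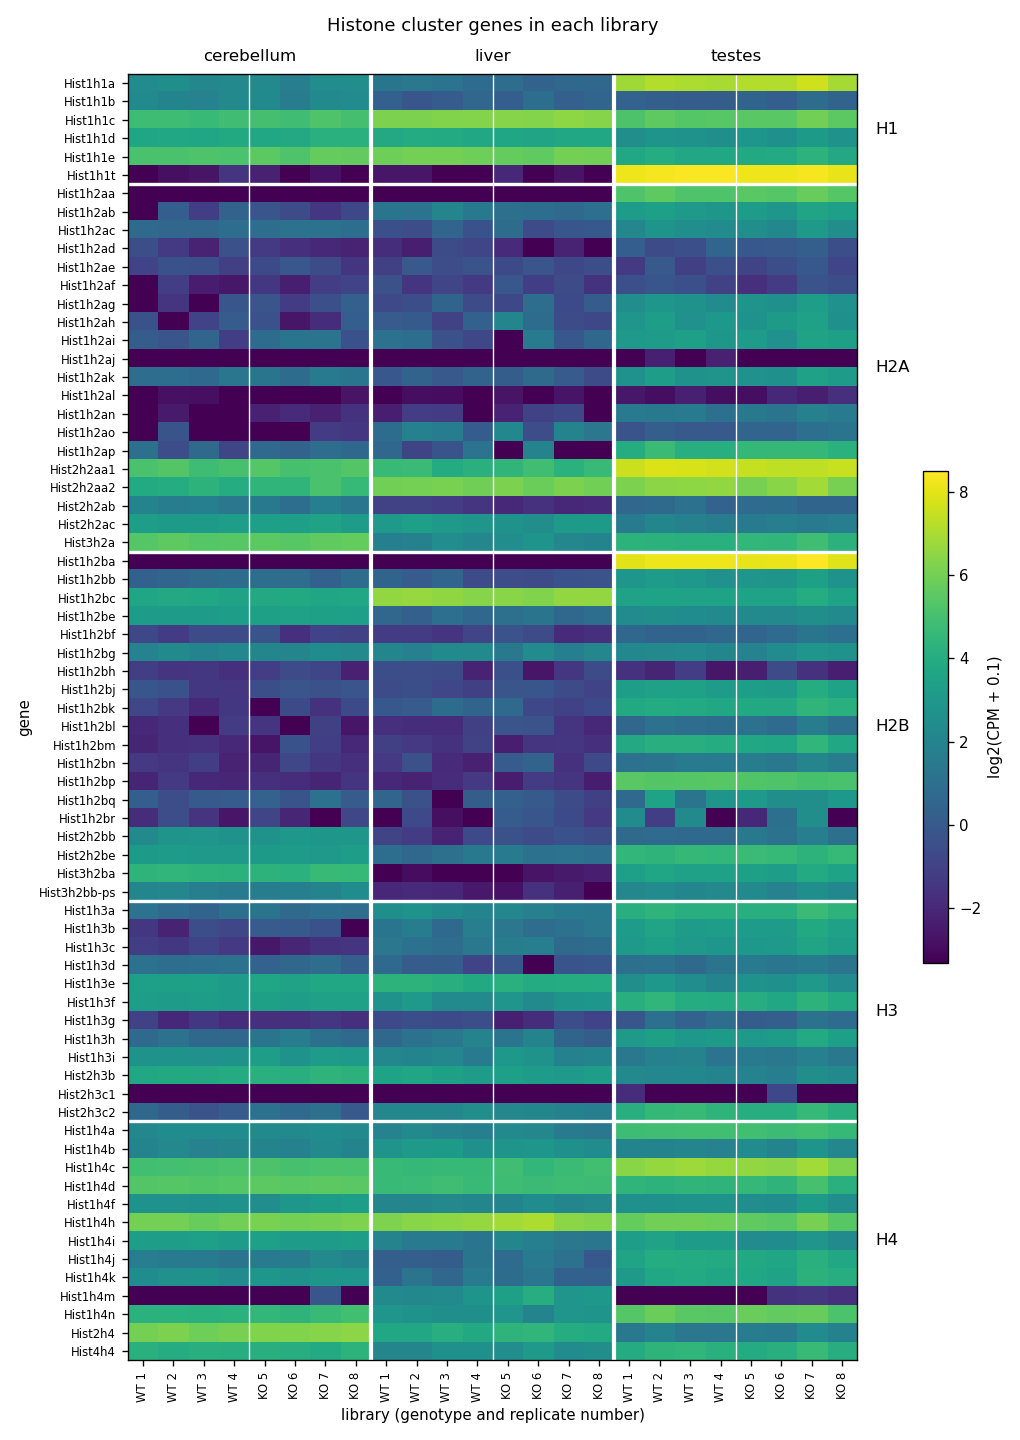
Level of the members in each of the 24 libraries, with 1 row per gene grouped by class and 1 column per library, coloured by log2(CPM + 0.1). The rows of Hist1h1t, Hist1h2aa and Hist1h2ba are bright only in the 8 testes columns, and Hist1h2bc is brightest in liver.

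Tissue differences of single genes were tested with limma-voom over all libraries with TMM scaling. Of 63 members tested, 41 were higher and 17 lower in WT testes than in WT liver, together 58, where 92.8% of all genes tested were called, 57.5% higher and 35.2% lower. Against cerebellum, 40 of 62 were higher and 14 lower in testes, where 91% of all genes were called, 51.4% higher and 39.6% lower. Cerebellum against liver gave 11 higher and 27 lower of 47, where 90.8% of all genes were called, 50.5% higher and 40.3% lower. Part of these calls give no independent direction, since the member was under 1 CPM in all 4 WT libraries of the tissue where it was low and was tested through its level in the other. This held for 14 of the 41 higher and 1 of the 17 lower members in testes against liver, for 17 of 40 and 0 of 14 in testes against cerebellum, and for 4 of 11 and 4 of 27 in cerebellum against liver. Scaling also moved these splits. With quantile normalization the counts were 23 higher and 25 lower for testes against liver, 34 and 17 for testes against cerebellum, and 6 and 32 for cerebellum against liver, while the median of all genes moved from 0.94 to 0.09, from 0.41 to −0.15 and from 0.33 to 0.11 on the log2 scale. Called in the same direction under both were 23 higher and 17 lower members in testes against liver, 34 and 14 in testes against cerebellum, and 6 and 27 in cerebellum against liver. Hist1h2be, Hist2h2ab, Hist1h2bf, Hist1h2bl and Hist2h2bb were called in opposite directions by the 2 scalings in testes against liver, and Hist1h2bf also in testes against cerebellum.

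The following members, chosen after their values were seen, differed between tissues in the same direction under both scalings. In log2 units, with the quantile value in parentheses, the difference of Hist1h2bc was −3.97 (−4.06) for testes against liver and −4.06 (−3.86) for cerebellum against liver. Hist1h1a was higher in testes than in liver by 4.96 (4.26) and than in cerebellum by 4.92 (4.92). Hist1h2bp, an H2B gene, stood at 39.8 to 43.9 CPM in WT testes and at 0.13 to 0.30 CPM in WT cerebellum, where a library held 2.77 to 7.33 expected counts, so that it passed the filter through testes alone. Hist2h4 was lower in testes, at −4.31 (−5.86) against cerebellum and −3.31 (−4.71) against liver. Hist3h2ba stood at 19.35 to 21.74 CPM in WT cerebellum and had 1 count over the 4 WT liver libraries, so that no size is given. Its neighbour Hist3h2a, which overlaps Trim17, was higher in cerebellum than in liver by 2.22 (1.98). The 6 members called higher in cerebellum than in liver under both scalings were Hist1h2be, Hist2h2bb, Hist2h4, Hist3h2a, Hist3h2ba and the pseudogene Hist3h2bb-ps, of which Hist2h2bb, Hist3h2ba and Hist3h2bb-ps were under 1 CPM in all WT liver libraries and passed the filter through cerebellum. Each of these differences can come from cell makeup or from RNA per cell, which cannot be told apart in bulk tissue, and the same holds for all comparisons below.

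The testis-type members were found in testes almost alone. Hist1h2aa and Hist1h2ba had 0 counts in all 16 cerebellum and liver libraries. Against 3 counts over the 4 WT libraries of the other tissue, the limit set for a count of 0, Hist1h2ba was at least 8091-fold higher in WT testes than in cerebellum and at least 11532-fold higher than in liver. For Hist1h2aa these bounds were 1144-fold and 1630-fold. Hist1h1t had 7 counts over the 4 WT cerebellum libraries and 4 over the WT liver libraries. The limits cover counting error only.

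The first KO comparison was in cerebellum, where the sums of all members, of H3 and of H4 lay higher in KO, a description without a test. The summed members stood at 585, 610, 564 and 589 CPM in the WT libraries and at 667, 624, 713 and 714 CPM in KO, so the groups did not overlap and the ratio of their means was 1.16. The H4 sum was 269 ± 10.2 in WT and 307 ± 15.8 in KO, and the H3 sum was 47.4 ± 0.813 and 58.2 ± 3.58 (SD, n = 4 each), with all KO libraries above all WT libraries in both classes. The H1 sum was 86.2 ± 2.29 and 104 ± 12.9 with overlap. H2A stood at 114 ± 6.07 and 133 ± 11.2, and H2B at 69.7 ± 3.40 and 76.4 ± 3.37, both with overlap.

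**Figure D3:**
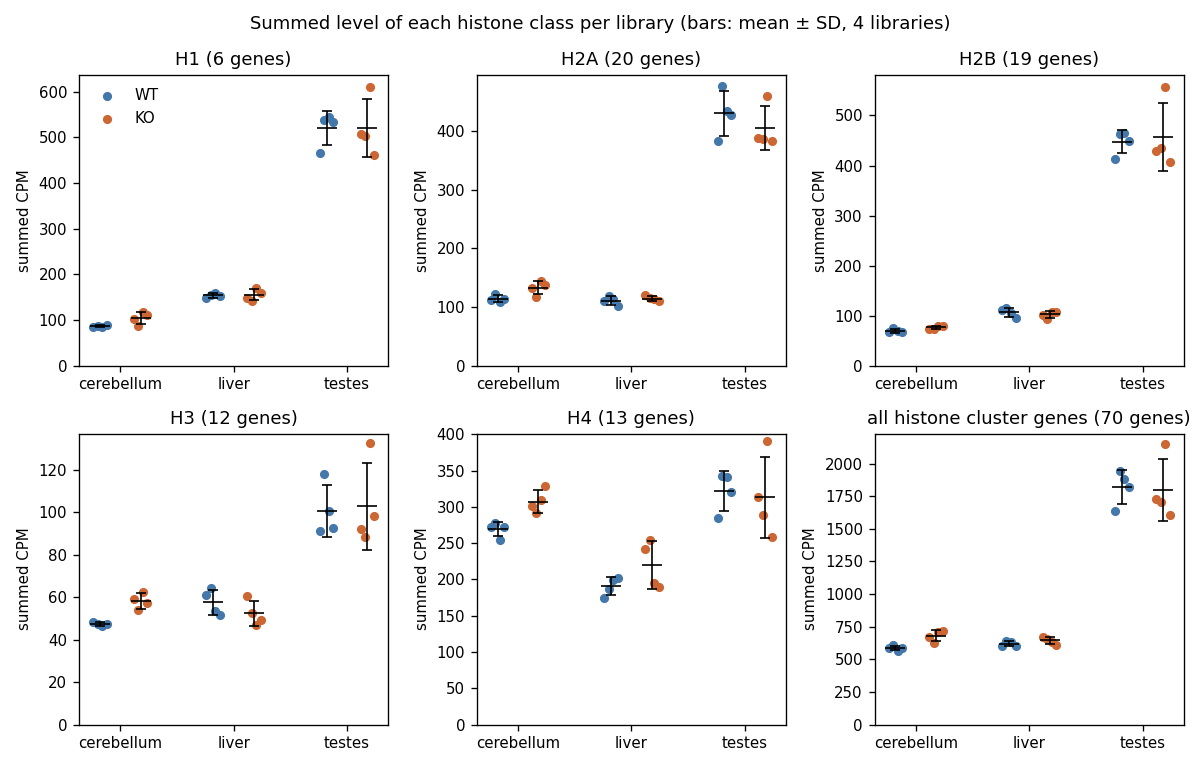
Summed CPM of the members of each class in each library, with WT and KO side by side per tissue, 1 point per library and a bar at the mean with its SD (n = 4). In cerebellum the KO points of H3 and H4 lie above the WT points, while in testes WT and KO points of every class overlap.

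Of the 70 members, 42 passed the filter in cerebellum and none passed through one genotype alone. Of these, 6 rose in KO and 0 fell (14.3%), where 6.44% of all genes tested were called, 3.93% higher and 2.51% lower. By class, 1 of 5 H1, 1 of 9 H2A, 0 of 8 H2B, 2 of 8 H3 and 2 of 12 H4 genes rose. At an unadjusted p under 0.05 there were 13 higher and 1 lower (33.3%), where 24.2% of all genes passed. The log2 change was positive in 35 of the 42, with a median of 0.148 against −0.006 over all genes tested. The KO libraries lay wholly above the WT libraries for 8 members and wholly below for 1, against 8.79% and 4.99% of all genes.

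Among the H3 genes, Hist2h3b (ENSMUSG00000074403.2) was at 13.55, 14.54, 13.90 and 15.60 CPM in WT and at 17.79, 17.58, 20.29 and 19.17 in KO. The groups were separate, and the log2 change was 0.36 ± 0.074 (SE, limma adjusted p = 0.0132). Most of its sequence words also occur in Gm20634, Hist2h3c1 or Hist2h3c2, so the division of reads bears on this value. Hist1h3e was at 10.10, 10.48, 9.97 and 8.80 CPM in WT and at 12.33, 11.20, 13.60 and 13.17 in KO. All KO libraries were higher (0.33 ± 0.087, adjusted p = 0.0404), with the same limit from other H3 genes. Hist1h3d went the other way without passing the test, at 2.06, 1.84, 1.86 and 1.99 CPM in WT and 1.22, 1.42, 1.79 and 1.08 in KO (−0.56, adjusted p = 0.0883).

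Among the H4 genes, which all encode the same core protein, Hist2h4 was at 65.63, 71.78, 59.95 and 67.32 CPM in WT and at 75.82, 76.43, 81.24 and 87.43 in KO. Every KO library was above every WT library (0.27 ± 0.060, adjusted p = 0.0205). Hist1h4n was at 18.78, 18.75, 17.85 and 18.55 CPM in WT and at 22.56, 20.25, 25.94 and 30.19 in KO (0.40 ± 0.101, adjusted p = 0.0375). With its copy Hist1h4m added, the change was 0.41 ± 0.103 (adjusted p = 0.0358). Hist1h4h, the highest per length, was at 66.05, 64.70, 54.44 and 63.25 CPM in WT and at 68.88, 66.04, 66.66 and 73.72 in KO, and did not pass (0.14 ± 0.060, adjusted p = 0.176).

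The linker histone Hist1h1e was at 33.78, 34.60, 37.92 and 35.76 CPM in WT and at 46.10, 37.90, 51.26 and 50.14 in KO. It rose by 0.37 ± 0.084 (adjusted p = 0.0226), although KO 6 lay just under WT 3. Hist2h2aa2, an H2A gene, was at 14.96, 15.74, 19.86 and 15.62 CPM in WT and at 20.93, 21.10, 34.79 and 24.24 in KO (0.59 ± 0.150, adjusted p = 0.0355). Its copy Hist2h2aa1, the highest H2A gene per length, was at 34.07, 40.48, 28.32 and 33.54 CPM in WT and at 41.69, 32.81, 33.79 and 40.55 in KO (0.10, adjusted p = 0.566). Both copies together stood at 50.6 ± 3.74 CPM in WT and 62.5 ± 6.22 in KO (SD, n = 4 each), with overlap. With Hist2h3c1 and Gm20634, which share their sequence, added as well, the change was 0.30 ± 0.065 (adjusted p = 0.0176). Hist3h2ba, the highest H2B gene per length, showed 20.47, 21.74, 20.16 and 19.35 CPM in WT and 20.15, 18.65, 24.95 and 23.80 in KO (0.07 ± 0.087, adjusted p = 0.641).

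**Figure D4:**
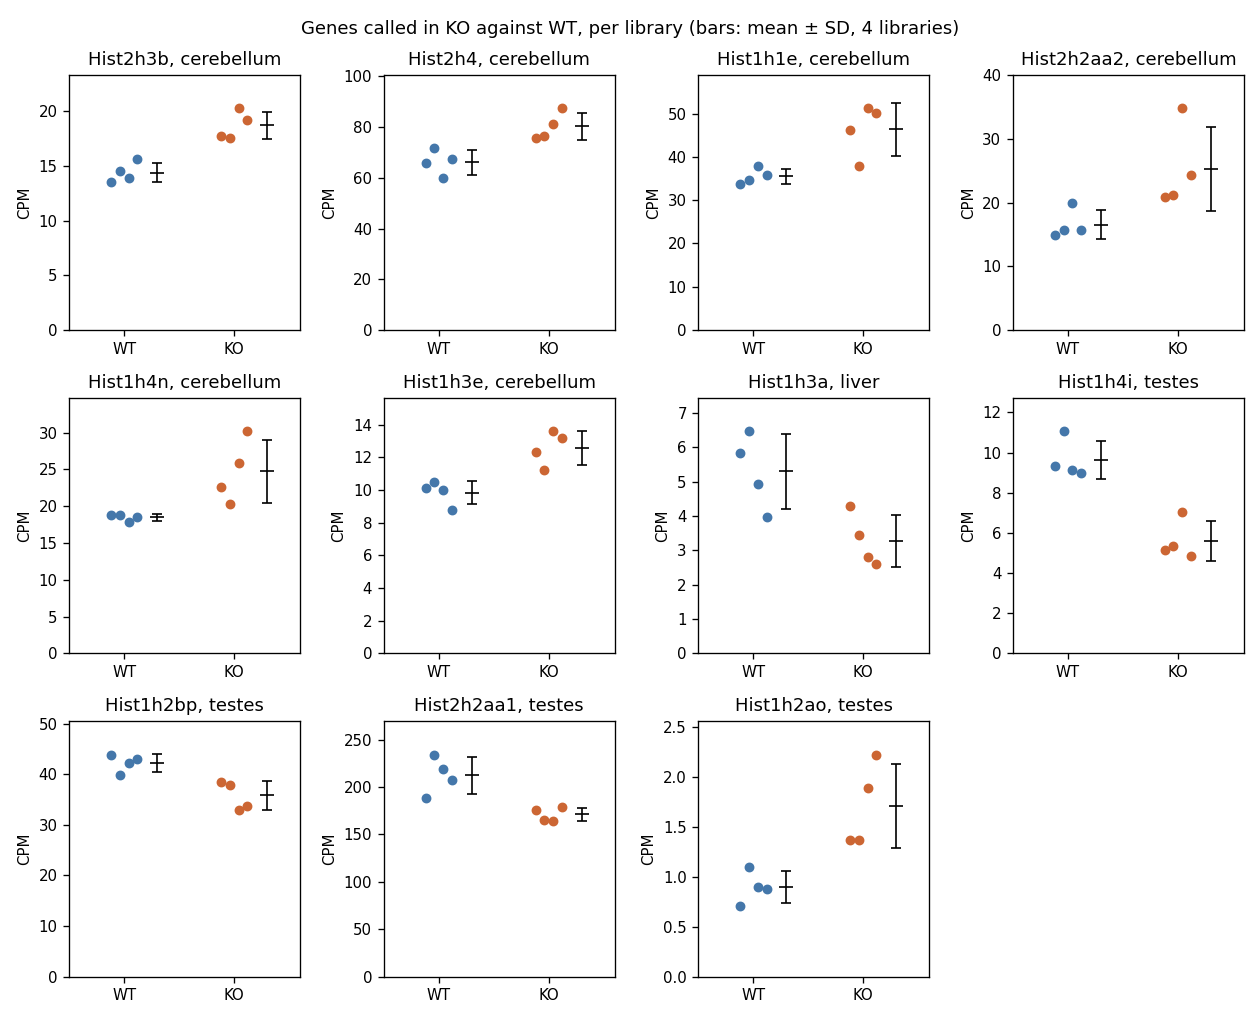
CPM per library of the members called between KO and WT, 1 panel per gene and tissue, with 1 point per library and a bar at each group mean with its SD (n = 4). WT and KO points are separate for Hist2h3b in cerebellum and Hist1h4i in testes, and they overlap for Hist1h3a in liver.

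The cerebellum calls depended on single libraries. The number of called members was 0 without WT 1, 4 without WT 2, 3 without WT 3, 2 without WT 4, 3 without KO 5, 9 without KO 6, 3 without KO 7 and 1 without KO 8, and with one fit over all 24 libraries it was 0 (adjusted p of 0.139 to 0.483 for the 6 genes). Cell markers differed in the same libraries. Of 8 granule cell genes 4 fell, with sums of 6258 to 6503 CPM in WT and 5757 to 6099 in KO. Of the midbrain list 2 of 5 tested rose (29.4 to 39.0 CPM in WT, 45.7 to 67.3 in KO, Foxa1 and Foxa2 at 0 in WT), and 2 of 8 oligodendrocyte genes rose (2551 to 3060 and 2966 to 3168 CPM). Granule cell progenitor genes showed 0 of 4 called, with sums of 37.7 to 47.2 CPM in WT and 48.7 to 51.4 in KO and their defining gene Atoh1 at 0 in WT. The erythroid list had 1 of 4 lower, and choroid plexus genes had 0 of 5 called, with sums of 9.42 to 1060 CPM in WT and 11.9 to 352 in KO. Their part in the histone result was not tested.

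In liver the summed members did not stand apart by genotype, at 620 ± 18.7 CPM in WT and 645 ± 26.6 in KO (SD, n = 4 each). H4 was at 191 ± 12.4 and 220 ± 32.9, H1 at a mean of 154 and 155, H2A at 111 and 115, H2B at 107 and 103, and H3 at 57.6 and 52.3 CPM. Of 39 members tested, 0 rose and 1 fell (2.56%), where 5.91% of all genes were called, 2.79% higher and 3.12% lower. At an unadjusted p under 0.05, 2 were higher and 5 lower (17.9%), where 23.3% of all genes passed. The median log2 change was −0.037 over the members and −0.003 over all genes.

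The gene that fell was Hist1h3a, which encodes H3.1. It was at 5.83, 6.47, 4.94 and 3.97 CPM in WT and at 4.28, 3.44, 2.79 and 2.61 in KO. KO 5 overlapped WT 4, and the log2 change was −0.81 ± 0.186 (limma adjusted p = 0.0307). Of 9 H3 genes tested in liver, 7 had a negative log2 change, with a median of −0.185. Hist2h3b, the highest H3 gene per length, was at 11.48, 12.56, 10.49 and 9.29 CPM in WT and at 10.04, 9.19, 7.92 and 9.72 in KO (−0.28 ± 0.106, adjusted p = 0.150). The Hist1h3a call was lost with edgeR (adjusted p = 0.0549), without the filter (0.0664), and without WT 1 (0.0873), WT 2 (0.0884), WT 3 (0.0575), KO 7 (0.0893) or KO 8 (0.101).

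The main liver genes of the other classes did not pass. Hist1h1c was at 71.40, 70.84, 77.30 and 78.34 CPM in WT and at 82.22, 78.58, 88.71 and 80.23 in KO (0.19 ± 0.083, adjusted p = 0.20), with all KO libraries higher. Hist1h2bc was at 97.03, 102.14, 91.44 and 80.48 CPM in WT and at 84.94, 77.07, 96.21 and 94.35 in KO (−0.03 ± 0.064, adjusted p = 0.850). Both genotypes overlapped for this gene. Hist1h4h was at 74.56, 84.93, 90.43 and 97.18 CPM in WT and 117.50, 129.77, 86.80 and 78.99 in KO (0.25 ± 0.181, adjusted p = 0.451), and Hist2h2aa2 changed by 0.06 ± 0.088 (adjusted p = 0.720). Hist1h4m was separate between genotypes, at 5.01, 4.44, 4.94 and 6.90 CPM in WT and 10.39, 16.21, 7.05 and 7.90 in KO, with an adjusted p of 0.106, and of 0.0685 with Hist1h4n added. In all, KO libraries lay above WT for 2 members and below for 1, against 7.34% and 5.31% of all genes. Of the liver cell lists, hepatocytes had 2 of 6 genes higher, lymphocytes 1 of 3 and macrophages 0 of 9.

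**Figure D5:**
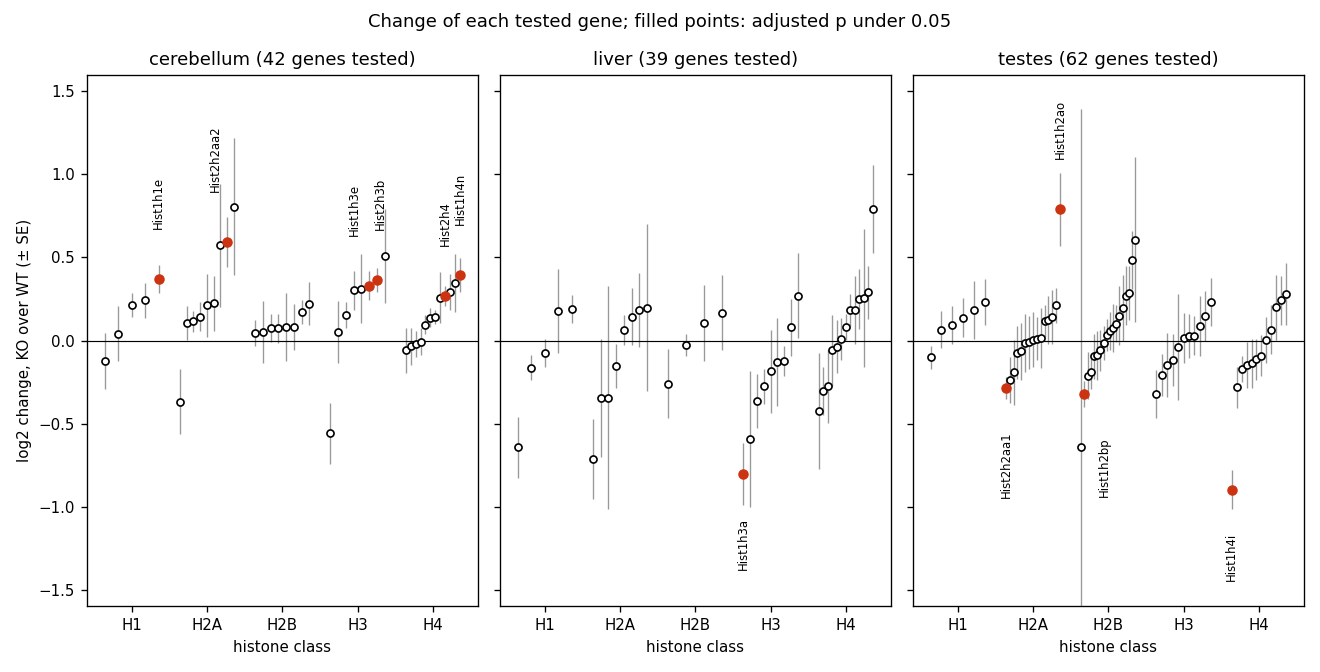
Log2 change KO against WT of each tested member (y axis, −1.6 to 1.6, bars are SE), by class and tissue, with called members filled and named. In cerebellum 35 of 42 points lie above 0, and in testes Hist1h4i lies lowest among the called members, at −0.90. The bar of Hist1h2br in testes runs past the axis.

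In testes, where histone mRNAs were most abundant, the summed members stood at 1637, 1940, 1883 and 1824 CPM in WT and at 1732, 1703, 2151 and 1608 in KO. The means were 1821 ± 132 and 1798 ± 241 CPM (SD, n = 4 each). KO 7 was the highest KO library in every class, and without it the KO mean was 1681 CPM. The testis-type sum was 652 ± 44.6 and 631 ± 74.3 CPM. The mean H1 sum was 520 in both genotypes, H2A went from 430 to 405, H2B from 448 to 457, H3 from 101 to 103 and H4 from 322 to 313 CPM. Of 62 members tested, 1 rose and 3 fell (6.45%), where 20.5% of all genes were called, 9.74% higher and 10.7% lower. The log2 change was positive in 34, and the median was 0.013. Without KO 7 these were 20 of 61 and −0.096, with 5 members called lower and 0 higher. At an unadjusted p under 0.05, 2 members were higher and 5 lower (11.3%), where 37.0% of all genes passed in the same fit. Without KO 7 there were 1 higher and 12 lower. No share or median over all genes is set beside the values without KO 7. They do not show a shift particular to the members.

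Hist1h4i (ENSMUSG00000060639.5), an H4 gene of the Hist1 cluster, had the clearest fall. It was at 9.32, 11.06, 9.12 and 9.01 CPM in WT and at 5.13, 5.32, 7.05 and 4.83 in KO. Every KO library lay below every WT library, and the log2 change was −0.90 ± 0.118 (limma adjusted p = 0.00194). Its share of the H4 counts was 3.00 ± 0.298% in WT and 1.79 ± 0.106% in KO (SD, n = 4 each). The call was made in all 8 fits that left out a library and in all 8 other settings.

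Hist1h2bp was at 43.91, 39.78, 42.14 and 42.99 CPM in WT and at 38.57, 37.89, 33.02 and 33.82 in KO, again without overlap (−0.32 ± 0.076, adjusted p = 0.0151). Its head-to-head neighbour Hist1h2an, whose start lies 242 bases away, had a WT mean of 6.51 CPM per kilobase against 59.8 for Hist1h2bp, although reads of Hist1h2an are shared with its copies. Hist2h2aa1 was at 188.51, 234.34, 218.86 and 207.61 CPM in WT and at 175.98, 165.42, 164.64 and 178.67 in KO (−0.29 ± 0.068, adjusted p = 0.0156). Its copy Hist2h2aa2 was at 71.16, 86.63, 88.31 and 96.66 CPM in WT and 68.16, 85.47, 115.04 and 67.10 in KO. The copies added together stood at 298 ± 26.6 CPM in WT and 255 ± 16.6 in KO (SD, n = 4 each), with overlap. With Hist2h3c1 and Gm20634, which share their sequence, added as well, the log2 change was −0.16 (adjusted p = 0.144). Hist1h2ao, the gene that rose, was at 0.71, 1.10, 0.90 and 0.88 CPM in WT and 1.37, 1.37, 1.89 and 2.23 in KO (0.79 ± 0.219, adjusted p = 0.0275). It reached 1 CPM in 1 WT library only and so passed the filter mostly through KO, and with its copy Hist1h2ap the change was 0.18 (adjusted p = 0.373).

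Of the testis-type genes, none passed the main test. Hist1h1t was at 294.36, 326.25, 348.07 and 345.80 CPM in WT and at 298.03, 295.16, 319.56 and 274.05 in KO (−0.10 ± 0.068, adjusted p = 0.300). The genotypes overlapped, and the call differed by tool, with −0.21 with TMM scaling (adjusted p = 0.0507), in edgeR (adjusted p = 0.0478) and in DESeq2 (0.0261). Hist1h2ba was at 253.73, 292.46, 296.83 and 288.75 CPM in WT and at 267.96, 280.95, 361.19 and 243.33 in KO (0.06, adjusted p = 0.743), and its sign was not fixed, since other settings gave −0.05 to 0.06. Hist1h2aa was at 37.45, 46.77, 37.68 and 38.08 CPM in WT and at 44.68, 41.84, 54.09 and 41.55 in KO (0.12 ± 0.096, adjusted p = 0.395). These head-to-head neighbours thus both missed the threshold.

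The other leading testes genes also stayed short of the threshold. Hist1h4h was at 51.59, 63.24, 62.54 and 59.49 CPM in WT and at 48.71, 44.79, 66.51 and 42.49 in KO (−0.28 ± 0.124, adjusted p = 0.123), and without KO 7 it passed at −0.43 (adjusted p = 0.0147). Hist1h3a was at 16.97, 20.28, 17.74 and 17.49 CPM in WT and 17.34, 16.72, 26.26 and 19.72 in KO (0.03 ± 0.120, adjusted p = 0.875). KO libraries lay wholly above WT for 2 members (Hist1h2ao and Hist2h2bb) and wholly below for 3 (Hist2h2aa1, Hist1h2bp and Hist1h4i), against 18.8% and 9.8% of all genes. The Hist1h2bp call was lost without WT 3 (adjusted p = 0.0505) or WT 4 (0.0541), that of Hist2h2aa1 without WT 3 (0.0565), and that of Hist1h2ao without WT 1 (0.0736), WT 3 (0.0716), WT 4 (0.071), KO 7 (0.0668) or KO 8 (0.0552). In all, 1 member was called without WT 3 and 2 without WT 4.

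Germ cell and somatic markers moved in the same testes libraries. Of 10 elongating spermatid genes 5 fell (15786 to 16630 CPM summed in WT, 12038 to 14797 in KO). Of 10 round spermatid genes 4 fell (1601 to 1678 and 1302 to 1594). Of 10 spermatocyte genes 2 fell. Yet 7 of these 10 log2 changes were positive (median 0.072), and the sums overlapped (915 to 995 and 936 to 1025). Of 10 Sertoli genes 8 rose (1150 to 1321 CPM in WT, 1490 to 2109 in KO). Of 9 spermatogonia genes 2 rose, with 7 of the 9 log2 changes positive. Of 6 Leydig genes 1 rose, but only 2 of the 6 log2 changes were positive, with a median of −0.184. The Leydig sums overlapped (1033 to 1124 and 932 to 1555). None of these genes was at 0 in the WT testes libraries. Hils1 and H1fnt, spermatid linker histones outside the clusters, fell, with log2 changes of −0.36 (adjusted p = 0.0070) and −0.19 (adjusted p = 0.0431). The part of cell makeup in the histone values was not tested.

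Whether the KO effect differed between tissues was tested as an interaction. The change of Hist1h4i differed between testes and cerebellum by −0.82 ± 0.177 (SE, limma adjusted p = 0.00556), the 1 member called of 42, where 10.2% of all genes were called, 7.88% higher and 2.28% lower. It differed between testes and liver by −0.81 ± 0.218 (adjusted p = 0.0205), and that of Hist1h3a was higher in testes than in liver by 0.86 ± 0.244 (adjusted p = 0.0266). These were 2 of 38 members, where 12.1% of all genes were called, 9.4% higher and 2.73% lower. On simulated data this contrast gave false calls above the nominal rate. The change of Hist2h3b was higher in cerebellum than in liver by 0.66 ± 0.155 (adjusted p = 0.0195), 1 of 34 members, where 4.04% of all genes were called, 2.05% higher and 1.98% lower. Without KO cerebellum 7 no member was called in the last contrast, and 2 were without KO cerebellum 6 or KO liver 7. In testes against liver 1 was called without WT liver 1 or WT liver 2, and in testes against cerebellum 2 were without KO testes 7.

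Genes that act on histone mRNAs and proteins were taken as fixed lists. Their counts stand beside 6.44% of all genes called in cerebellum, 5.91% in liver and 20.5% in testes (9.74% higher and 10.7% lower). Of the 3′ end processing factors, with Slbp and the U7 snRNP proteins Lsm10 and Lsm11, 0 of 18 were called in cerebellum. In liver 1 of 17 fell, Sympk, a scaffold of the cleavage complex (−0.28 ± 0.058, adjusted p = 0.0216). In testes 1 of 18 fell, again Sympk (−0.26, adjusted p = 0.0382), and 1 rose, Casp8ap2 (FLASH), which binds the U7 snRNP (0.33 ± 0.063, adjusted p = 0.00629). Of the decay factors, 4 of 6 are in the table under the symbols used, with 0 called in cerebellum and liver and 1 of 4 higher in testes, the kinase Smg1 (0.21, adjusted p = 0.0158). Of the transcription regulators, with Npat and Hinfp, 0 of 13 in cerebellum and 0 of 11 in liver were called, and 2 of 13 rose in testes, namely Pou2f1, which binds the octamer (0.26, adjusted p = 0.0139), and Nfyb, a subunit of the CCAAT-binding factor (0.39, adjusted p = 0.0254).

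Of the histone chaperones, 1 of 16 fell in cerebellum (Rbbp4, −0.16, adjusted p = 0.0316), 0 of 16 were called in liver, and 2 of 18 rose in testes, Atrx (0.43, adjusted p = 0.0038) and the FACT subunit Supt16 (0.22, adjusted p = 0.0179). S-phase genes were called in 1 higher and 1 lower of 19 in cerebellum (Tyms, 0.44, adjusted p = 0.0231, and Mcm5, −0.33, adjusted p = 0.0496). Their median log2 change in cerebellum was −0.099, where the histone members had 0.148. In liver 0 of 20 S-phase genes were called, with a median of −0.273, and in testes 1 rose and 1 fell of 24. Genes of cycling cells had 0 of 2 called in cerebellum, 0 of 3 in liver and, in testes, 2 higher and 1 lower of 10. Replication-independent histone genes, such as H3f3a and H2afz, had no call by limma in any tissue, among 11 tested in cerebellum, 9 in liver and 11 in the testes libraries. At an unadjusted p under 0.05 they numbered 5, 4 and 3, where 24.2%, 23.3% and 37.0% of all genes passed, and in cerebellum 9 of the 11 log2 changes were positive with a median of 0.087. For the other lists without a call, the unadjusted counts were 5 processing, 1 decay, 2 transcription and 1 cycling gene in cerebellum, and in liver 0 decay, 0 transcription, 5 chaperone, 7 S-phase and 1 cycling gene.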

How the data were processed

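The authors aligned paired reads with STAR to mm10 and counted them with RSEM on GENCODE M21, and deposited expected counts per gene, not normalized. Versions and the strand used in counting are not given in the sources used here. 0 columns were left unmatched. Groups came from the labels. The members and gene lists were chosen with earlier results of these data known.

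Each tissue was fitted on its 8 libraries with limma 3.58.1 in R 4.3.3: genes with at least 1 CPM in at least 4 libraries, voom with quantile normalization, and Benjamini-Hochberg adjusted p under 0.05 over all genes tested. The number of libraries in the filter is not in the methods, and the group size was used. WT tissue contrasts and interactions came from one limma-voom fit over 24 libraries with TMM factors (edgeR 4.0.16). CPM values use the library totals, which count all genes, and the limit for a count of 0 was 3 counts.

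Named with a test were the testis-type members in testes, per tissue up to 8 called members in each direction and the highest tested member per length in each class, with up to 3 called genes per other list. Members with values outside this rule (Hist2h2aa2 in testes as a copy, Hist1h2an, Hist1h3d, Hist1h4m, Hist2h2bb) were chosen after their values were seen, as were those named for tissue differences. Alternatives were TMM, edgeR and DESeq2 1.42.0 on rounded counts, no filter, a filter at 0.2 CPM, noncoding RNAs left out, a single fit of all tissues, leaving out each library and a replicate block. Summing of linked copies was added after seeing the data. The fits were tested on simulated data, where the share of false calls was above the nominal rate in the cerebellum and testes fits and highest in the testes against liver interaction. Figures were drawn with matplotlib 3.10.9.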

Additional observations from a re-analysis of the deposited data

Results flagged for a closer look

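The spread within a group of 4 libraries was looked at in 86 cases, each a class sum or a member named with a test in that tissue. In 5 of them 1 library stood apart by Dixon's criterion, and chance flags about 1 in 20 groups. Hist2h2aa2 was higher in WT cerebellum 3 (ratio 0.840), at 19.9 CPM where the others lay at 15.0 to 15.7. The H1 sum was lower in WT testes 1 (0.883), at 465 CPM where the others lay at 534 to 544. Hist1h4i and Hist1h2aa were both higher in WT testes 2 (0.849 and 0.932), at 11.1 CPM beside 9.01 to 9.32 and at 46.8 CPM beside 37.4 to 38.1. The H2A sum was higher in KO testes 7 (0.941), at 461 CPM beside 384 to 388.

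The KO effect differed between tissues for 3 members by the interaction test in limma. Hist1h4i, an H4 gene, had a lower log2 change in testes than in cerebellum (difference −0.82) and than in liver (−0.81). Hist1h3a, an H3 gene, had a higher one in testes than in liver (0.86), and Hist2h3b a higher one in cerebellum than in liver (0.66).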

How the results depend on the processing

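In cerebellum 6 members were called, with 3 without the filter, 0 in one fit over all libraries and 0 to 9 with a library left out, beside 628, 147 and 417 to 2317 genes in all (1045 in the main fit). In liver 1 member was called, with 0 in edgeR, 2 in DESeq2, 0 without the filter and 0 to 2 with a library left out. All genes called in liver numbered 1408 in DESeq2, 492 without the filter, 1435 in one fit and 284 to 795 with a library left out (757 in the main fit). In testes 4 members were called, 2 with linked copies summed and 1 to 5 with a library left out, beside 1711 to 4913 genes in all (3957). Interactions in testes against liver called 4 members with the replicate block, 4 in edgeR, 1 without the filter and 1 to 3 with a library left out, against 2. Testes against cerebellum gave 2 with the block and 1 to 2 with a library left out. Cerebellum against liver gave 4 with the block and 0 to 2 with a library left out, where the main fit gave 1 in each contrast. Counts over all genes are not set beside these interaction counts, so they are not read as results about the members. Equal numbers were not taken to pair the libraries, and no label gives the animal. Deviations of same-numbered libraries of different tissues correlated at −0.13 to 0.26, the 4 KO pairs of liver and testes at 0.112 to 0.183, and not every library correlated best with its own number. WT and KO share no number, so no block was possible within a tissue. WT tissue counts (58, 54 and 38) stayed within 1.5 times. All 209 recomputed class sum ratios moved by less than the spread between single libraries. For the 152 that left out a library this was nearly fixed in advance, since 1 of 4 libraries moves a mean by less than that spread. Only the 57 from other settings were free to move farther. Testis-type sums in cerebellum and liver were at the limit for a count of 0 and were not recomputed. Depth limits the low members, and 28 members in cerebellum, 31 in liver and 8 in testes were left untested by the filter.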
